A study of Taeniopygia guttata with 134 samples.

Results

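In the brain of male zebra finches, 51 of 18618 genes had low RNA levels in the hypothalamus compared with nucleus taenia and with the bed nucleus of the stria terminalis, at similar levels in those 2 regions and with little averaged difference after endotoxin. The hypothalamus is written HY, the bed nucleus NST and nucleus taenia TN, following the sample codes. The genes were chosen on counts scaled to library size (CPM): each count plus 0.5 was divided by the library total plus 1, multiplied by 1000000 and put on the log2 scale. The mean log2 CPM of the control-injected libraries had to be at least 1 lower in HY than in NST and than in TN, at least 1 in NST and TN, and to differ by under 0.58 between NST and TN. The averaged difference between LPS and control males had to lie within 0.4 on the log2 scale in every region. These levels and this averaged difference therefore chose the genes and are given below as a description, with no test. Differences between social settings were not a limit of the choice and were tested. The control level was a mean over the settings, however, so a gene near a limit could meet it through 1 setting. For such genes the tests of setting are not independent of the choice.

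The study injected males with lipopolysaccharide (LPS, code L) or a control injection (code S in the sample names, C in the design text) and then housed them in 4 social settings. ISO males were isolated, KFC males stayed with a familiar female throughout, KF males rejoined a familiar female, and NF males were placed with an unfamiliar female. Polyadenylated RNA was sequenced from HY, NST and TN, giving 134 libraries from 46 males, of which 42 had all 3 regions. The 24 groups of region, setting and injection held 4 to 6 males each: 6 in each ISO and KF group, 5 in each KFC group, and in NF 5 L and 6 S males for HY, 6 and 6 for NST, and 4 and 5 for TN. All animals were males of 1 species (Taeniopygia guttata). The sources used here give no age, strain, LPS dose or interval between injection and dissection.

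LPS, a component of the outer membrane of Gram-negative bacteria, is used as an endotoxin to set off an immune response and sickness behaviour without a living pathogen. The hypothalamus belongs to the diencephalon and governs hormone release, body temperature, feeding and drinking. NST and TN lie in the telencephalon, and nucleus taenia is regarded as part of the avian amygdala. The 3 regions belong to a network studied for social and sexual behaviour in birds. Telencephalon and diencephalon arise from different parts of the embryonic forebrain and hold different kinds of neurons.

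The table carries Ensembl-style identifiers without names, and 0 of 18618 could be matched to the reference table of zebra finch genes. The genes are therefore given by identifier, without roles, positions or sequences, and the labelled tissues could not be checked against marker genes. Library totals ran from 7339294 to 13159755 counts in HY, from 7902418 to 11879211 in NST and from 9049816 to 14096470 in TN. The replicate numbers of the KFC males, 62 to 71, lie apart from those of the other settings, 3 to 59, so that any batch that follows the numbers and the KFC setting cannot be told apart. Libraries that carry the number of 1 male in different regions were correlated in their deviations from the group means, with exceptions in 3 LPS males. HY of males 32 and 33, both KF, correlated at -0.12 and -0.15 with NST of their own number and at 0.53 and 0.52 with NST of the other's number. NST of male 19, in the NF setting, correlated at 0.10 with HY and 0.06 with TN of the same number. Some values set within males are therefore given with and without males 19, 32 and 33. These are the counts of genes lowest in HY and the median difference of HY from the other regions over all males. Counts of males whose regions deviated in the same direction are also given in this way. Differences by setting and by injection, counts of males for single genes, and tests with the male as a block include these males. They were not redone without males 19, 32 and 33. HY of male 44 and NST of males 3 and 4 stood apart from their groups across many genes, and some of the results that use them are also given without them. Other results, among them the gaps within males and the contrast of any female with isolation in NST, include them.

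In control males the 51 genes were lower in HY than in the mean of NST and TN with a median difference of -1.29 on the log2 scale, which is 2.45-fold, and a range from 2.04-fold to 7.41-fold. Only 4 of the 51 were at least 4-fold lower. The mean level in HY ran from 1.5 to 451 CPM with a median of 28.8. The same genes had a median of 66.8 CPM in NST, between 3.58 and 952, and of 75.3 CPM in TN, between 4.28 and 989. TN was above NST for 38 of the 51, with a median log2 difference of 0.16. In bulk tissue, fewer cells of a type and less RNA per cell cannot be told apart. Among the 15097 genes tested across regions, 150 (0.994%) were at least 1 lower in HY than in both other regions. The limits cut through a continuous range. The 3 genes nearest the limit inside it had gaps of -1.01, -1.03 and -1.03, and the nearest 3 outside had gaps of -0.99, -0.99 and -0.98. Within 0.1 of the limit there were 16 genes inside and 14 outside. On the limit for LPS, the nearest inside had averaged differences of 0.37, 0.37 and 0.34 in size, and the nearest outside 0.41, 0.44 and 0.44.

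Separation of regions library by library was less complete than the means. Every control HY library was below every control TN library for 9 of the 51 genes (0.735% of all genes tested), and below every control NST library for 4 (0.0596%). Among LPS males these counts were 2 (0.682% of all genes tested) and 1 (0.0199%). Without NST of males 3 and 4, the counts against NST were 4 in control males and 2 in LPS males. For most of the genes, then, the highest HY library reached into the range of the lowest libraries of the other regions.

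The gene with the widest gap, ENSTGUG00000006595, was 7.41-fold lower in HY than in the mean of the other regions. In 23 control HY libraries it ran from 3.70 to 51.1 CPM with a median of 11.7. In 23 control NST libraries it ran from 50.5 to 156 CPM with a median of 96.3. In 22 control TN libraries it ran from 71.2 to 138 CPM with a median of 99.0. The control HY and TN libraries did not overlap, whereas the highest HY library, from NF male 20, reached just above the lowest NST libraries. In LPS males the medians were 13.9 CPM in HY, 92.0 in NST and 84.7 in TN, with ranges of 3.35 to 56.8, 32.3 to 217 and 55.4 to 116 CPM. The HY range of LPS males overlapped the low end of NST and of TN. The level was lowest in HY in all 42 males with 3 regions.

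The second gene by gap, ENSTGUG00000002096, was 4.44-fold lower in HY. Control HY libraries ran from 2.30 to 11.02 CPM with a median of 5.78. Control NST libraries ran from 12.1 to 47.5 CPM with a median of 25.3, and control TN libraries from 10.7 to 51.4 CPM with a median of 30.97. The control HY libraries all lay below the NST libraries and only the highest of them exceeded the lowest TN library. LPS HY libraries ran from 4.54 to 14.97 CPM with a median of 7.75, against medians of 24.8 CPM in NST and 24.8 CPM in TN. Within each of the 42 males HY was again the lowest region.

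**Figure D1:**
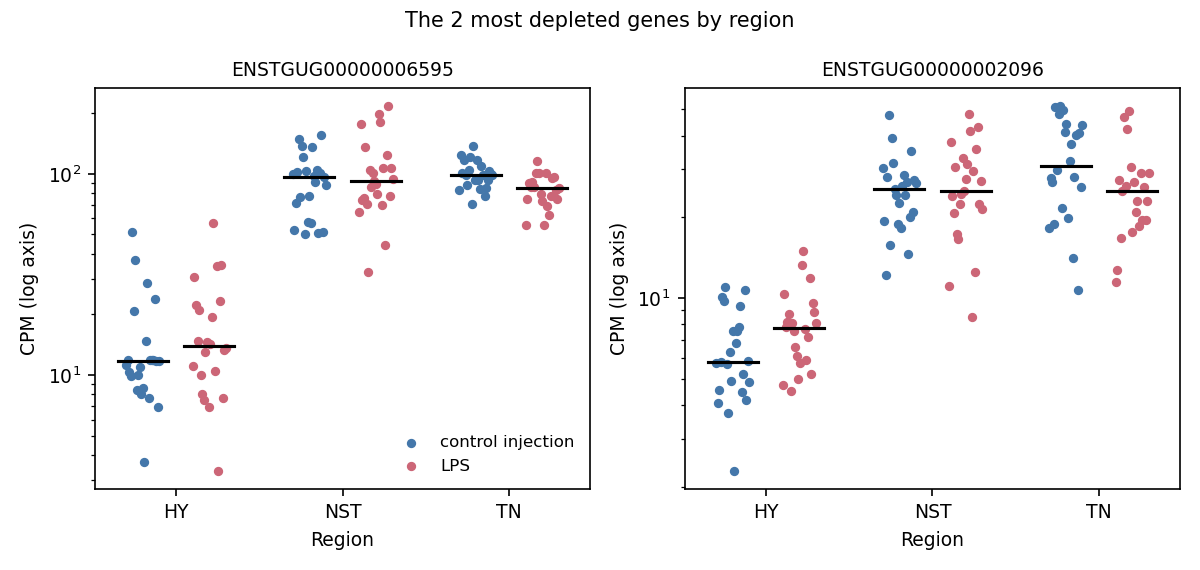
Level in CPM (log axis) of the 2 genes with the widest gap, ENSTGUG00000006595 and ENSTGUG00000002096, by region, 1 point a library, with control injection in blue, LPS in red and bars at the medians. HY libraries lie below most libraries of NST and TN, with control medians of 11.7 against 96.3 and 99.0 CPM for the first gene and 5.78 against 25.3 and 30.97 CPM for the second.

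Within males, 7 of the 51 genes were lowest in HY in all 42 males, and 39 of the 51 were lowest there in at least 90% of males. The median gene was lowest in HY in 40 males, and the weakest, ENSTGUG00000018608, in 27. Leaving out males 19, 32 and 33, 8 genes were lowest in HY in every one of 39 males and 36 in at least 90%. The control males among them chose the genes, which favours such counts. The share of all genes lowest in HY was not computed. To follow the genes together, an index was formed in each library as the median over the 51 genes of the log2 CPM minus the gene's mean over the regions. HY minus the mean of NST and TN in this index ran from -2.16 to -0.46 over the 42 males, with a median of -1.19 (-1.17 in the 39 males). All 42 males had a negative value, which the choice of genes favours. The weakest gap belonged to an isolated LPS male (number 56), whose NST index was -0.41, within the range of HY, and in which 28 of the 51 genes were lowest in HY. The widest, -2.16, belonged to control male 44 of the KF setting, whose HY library had the lowest index of all, -1.62.

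The gap by setting had a median of -1.05 in 12 ISO males, -1.34 in 12 KF males, -1.23 in 10 KFC males and -1.15 in 8 NF males. It was -1.06 in 20 LPS males and -1.36 in 22 control males, the control males being those that chose the genes. The ranges overlapped between every pair of these groups. ISO males ran from -1.56 to -0.46 and KF males from -2.16 to -0.85.

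**Figure D2:**
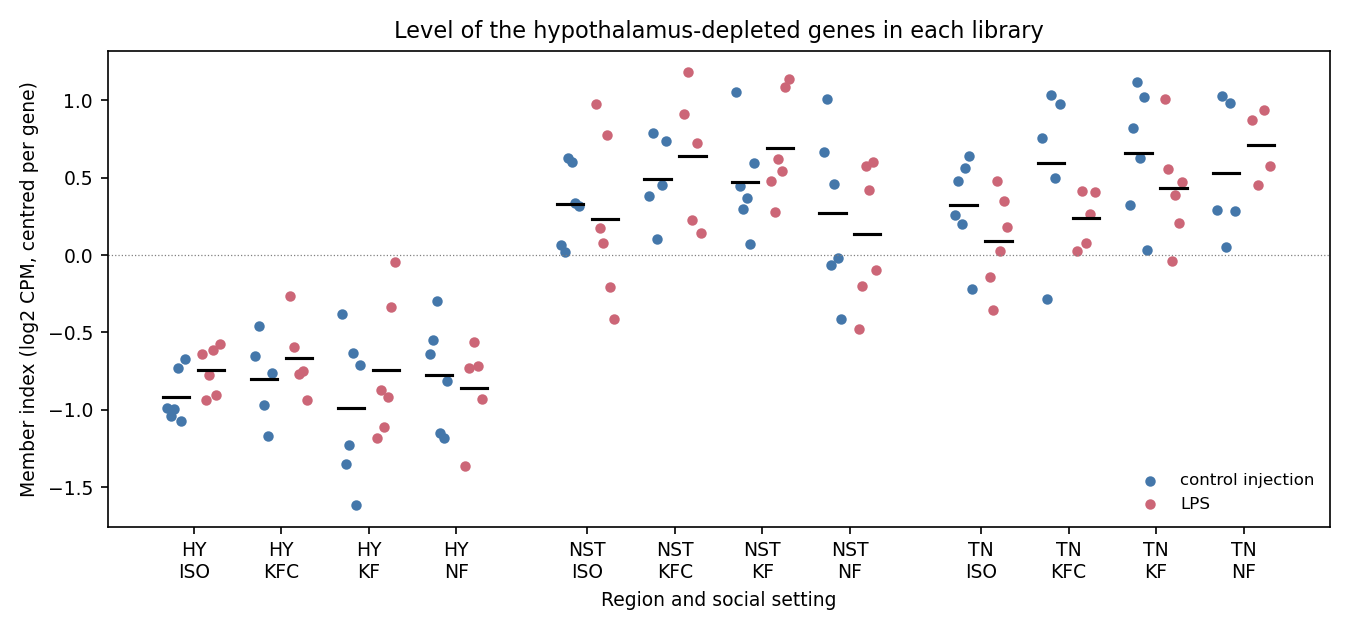
Index of the 51 genes (median log2 CPM after centring each gene) in every library by region and setting, control injection in blue and LPS in red, with bars at the group means. All HY libraries are below 0, from -1.62 to -0.05, whereas NST runs from -0.48 to 1.18 and TN from -0.35 to 1.12.

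The 51 genes moved together from male to male within a region, which the choice on group means did not use. Here each gene's log2 CPM was taken as its deviation from the mean of its group of region, setting and injection. The mean correlation between pairs of the 51 genes was 0.418 over 45 HY libraries, 0.639 over 46 libraries of NST and 0.486 over 43 TN libraries. Over all genes tested it was 0.0389, 0.0342 and 0.0189. As a comparison set, the rule was turned around to pick genes at least 1 higher in HY than in both other regions, which gave 44 genes. Their mean correlation was 0.199, 0.176 and 0.110 in HY, NST and TN. The correlations are descriptions: the genes share libraries, depth and dissection. Without HY of male 44 and NST of males 3 and 4, the values for the 51 genes were 0.412 in HY and 0.643 in NST.

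The joint movement took in most of the genes but not all. The deviation of a gene correlated above 0.5 with the median deviation of the other genes of the set for 38 of the 51 genes (HY), 47 (NST) and 42 (TN). Of genes outside the set, 7.49%, 8.08% and 8.39% correlated above 0.5 with that median in HY, NST and TN. ENSTGUG00000002096 followed the set in each region, with correlations of 0.78 (HY), 0.90 (NST) and 0.95 (TN). ENSTGUG00000000999 followed the set in HY (0.94) and NST (0.92) and not in TN (-0.17). ENSTGUG00000018608 followed it in no region, with correlations of -0.004, -0.02 and 0.11.

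The males spread widely in these genes. The SD between males within groups had a median over the set of 0.490 (HY), 0.495 (NST) and 0.491 (TN) on the log2 scale. Genes whose level lay between the lowest and the highest of the set had medians of 0.323, 0.264 and 0.272. These were 12746, 11415 and 10837 genes, most of those tested, so they were not matched to the set on level. Lower in the set went with higher in the genes picked the other way around: the correlation of the 2 sets' median deviations was -0.433 over 45 HY libraries, -0.810 over 46 NST libraries and -0.517 over 43 TN libraries. Without HY of male 44 it was -0.644 in HY, and without NST of males 3 and 4 it was -0.800 in NST. In HY of male 44 both sets were low, the index of the 51 genes at -1.62 and that of the HY-higher genes at 0.39, the lowest of any HY library for each. In NST of male 3 the index of the 51 genes was -0.48, the lowest of any NST library, and that of the HY-higher genes 0.44, the highest. What moved with these deviations beyond the values given was not tested.

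**Figure D3:**
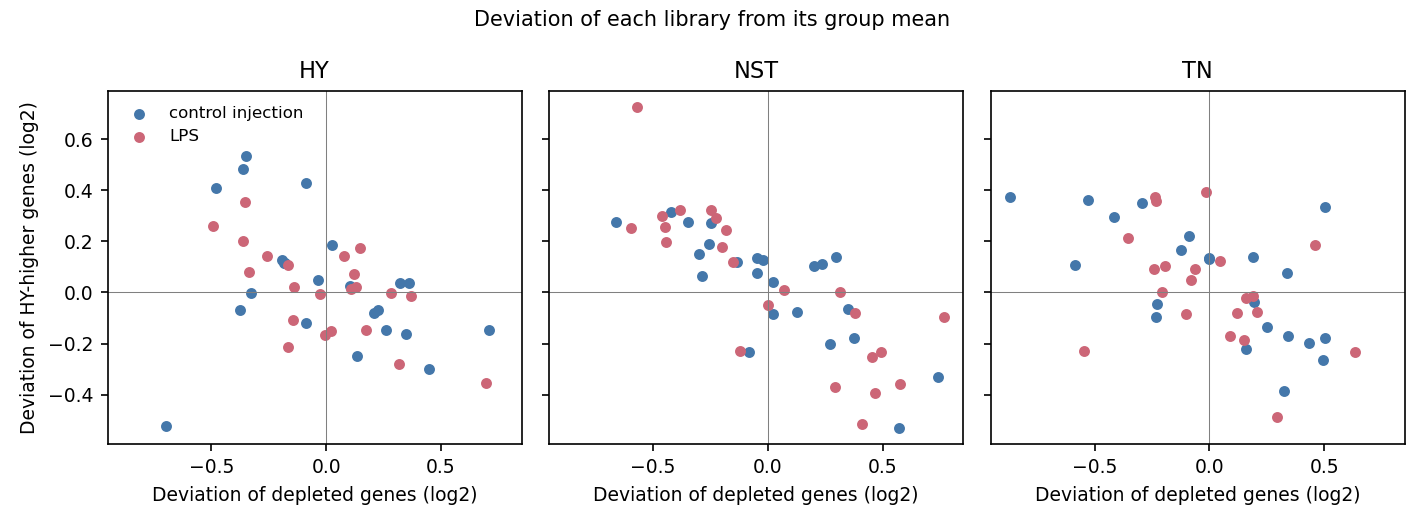
Deviation of each library from its group mean in log2 CPM, as the median over the 51 depleted genes (horizontal) against the median over the 44 genes higher in HY (vertical), 1 panel a region and 1 point a library. Points fall from upper left to lower right, most tightly in NST (correlation -0.810), and HY of male 44 stands alone at the lower left of its panel.

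The deviations of the set were compared between regions of the same male. HY and NST deviated in the same direction in 34 of 45 males (75.6%). HY and TN did so in 18 of 42 (42.9%) and NST and TN in 15 of 43 (34.9%). Without males 19, 32 and 33 the counts were 32 of 42, 16 of 39 and 14 of 40. HY and NST thus shared their direction in most males, whereas NST and TN differed in direction in most. These counts are not given for other genes. The correlations of deviations between same-numbered libraries described above had medians of 0.51 (HY and NST), 0.45 (HY and TN) and 0.48 (NST and TN). In isolated LPS male 6, for example, the index was 0.97 in NST and -0.14 in TN, and in control NF male 39 it was -0.02 in NST and 0.98 in TN.

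**Figure D4:**
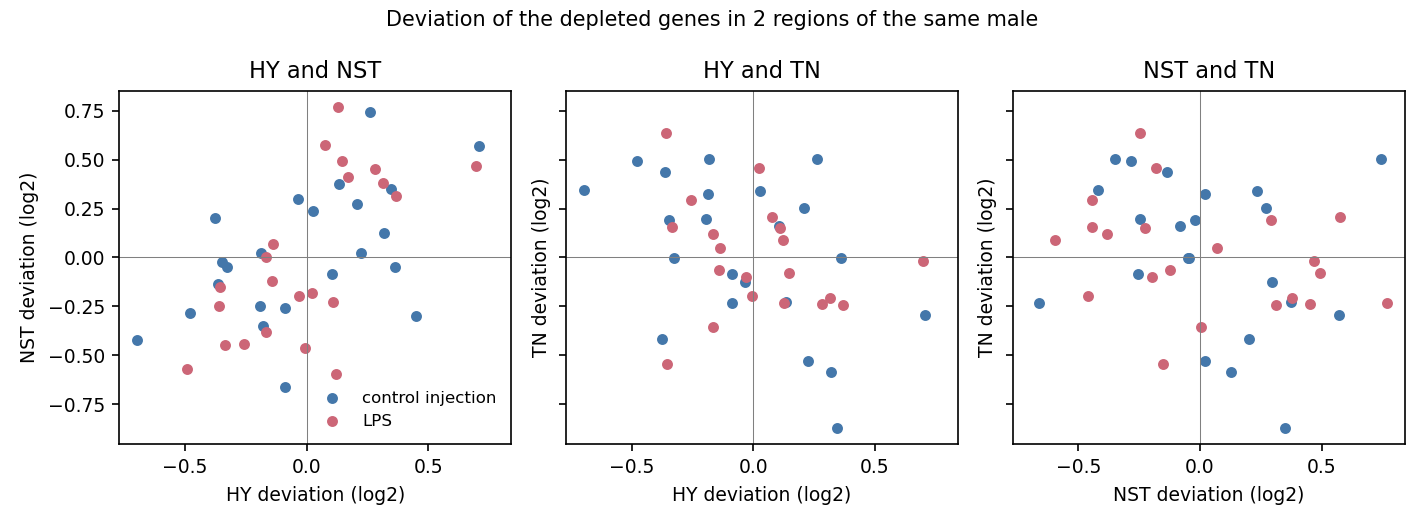
Median deviation of the 51 genes from the group mean (log2) in 2 regions of the same male, 1 point a male, for HY with NST, HY with TN and NST with TN. HY and NST share their direction in 34 of 45 males, and NST and TN in 15 of 43.

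The averaged LPS difference, held within 0.4 by the choice of genes, was positive for 40 of the 51 in HY, with a median of 0.11 on the log2 scale, and for 32 in NST, with a median of 0.05. In TN it was negative for 50 of the 51, with a median of -0.17. The medians over all genes tested were -0.001 in HY, -0.01 in NST and 0.03 in TN. Of all genes, 50.3% were lower after LPS in HY, 55.1% in NST and 41.1% in TN. With library sizes scaled by TMM the TN count was 51 and its median -0.21, and the HY and NST counts were as before. These values were part of the choice and carry no test. Of 69 genes that met the limits on level, 18 were left out by the limit on LPS. By region, 7 exceeded it in HY, all higher after LPS, 7 in NST, of which 6 were higher, and 7 in TN, of which 5 were lower.

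Within settings the LPS differences of TN were -0.27 at the median in ISO, -0.32 in KFC, -0.22 in KF and 0.18 in NF, with 41, 50, 42 and 9 of the 51 genes lower after LPS. In HY the medians were 0.21, 0.18, 0.23 and -0.14, with 9, 17, 10 and 40 lower. In NST they were -0.10, 0.11, 0.24 and -0.11, with 32, 12, 6 and 42 lower. The NF median thus had the opposite sign from those of the other settings in HY and TN. Shares over all genes are not given for these counts within settings. Whether the LPS difference depended on setting was tested for each gene across all genes, with edgeR's quasi-likelihood test and Benjamini-Hochberg adjustment, and no gene of the set passed at an adjusted p of 0.05 in HY, NST or TN (0% of all genes in each). At an unadjusted p under 0.05 there were 2 of 51 in HY (4.88% of all genes), 1 in NST (3.87%) and 3 in TN (4.73%). DESeq2 called 0 of the 51 in each region (0% of all genes in HY and TN, 0.0417% in NST).

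Differences between the social settings were tested over both injections and among control males alone. In HY no gene of the set passed in either test (0% of all genes called in each): 0 of 51 reached an unadjusted p under 0.05 over both injections (4.2% of all genes), and 1 did so among control males (5.74%). DESeq2 called 0 in each (0% and 0.00694% of all genes). In NST 1 of 51 passed over both injections (0.0417% of all genes) and 17 had an unadjusted p under 0.05 (12%). The 1 was ENSTGUG00000018608, whose tests of setting in NST are not independent of the choice, as given below. DESeq2 called 4 (1.43% of the 9644 genes it gave an adjusted p). Among NST control males 0 passed (0% of all genes), 2 had an unadjusted p under 0.05 (4.51%), and DESeq2 called 1 (0.139%). In TN 0 passed over both injections (0% of all genes), with 17 at an unadjusted p under 0.05 (8.96%), and DESeq2 called 1 (0.329%). Among TN control males 0 passed (0% of all genes), 2 had an unadjusted p under 0.05 (4.97%), and DESeq2 called 0 (0.0411%). Since the genes vary together within NST and TN, the 17 are not separate observations.

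Most of the set had higher values in TN of males with a female than of isolated males, although 1 gene passed the test. Over both injections, the mean of KFC, KF and NF minus ISO was positive for 49 of the 51 genes, with a median of 0.34 on the log2 scale and a range from -0.12 to 0.86. Of all genes tested in TN, 48.5% were higher with a female, with a median of -0.01. By the adjusted p of edgeR's quasi-likelihood test 1 of the 51 passed (0.24% of all genes). At an unadjusted p under 0.05 there were 28 of 51 (14.1% of all genes), all higher with a female (7.54% of all genes in that direction). DESeq2 called 6 (1.56% of the 13744 genes it gave an adjusted p). Since the genes vary together within TN, the 49 and the 28 are not separate observations. The same holds for the counts of the contrasts below. The index averaged 0.205 (SD 0.321) in 12 ISO males, from -0.35 to 0.64. It averaged 0.544 (SD 0.387) in 12 KF, 0.418 (SD 0.421) in 10 KFC and 0.608 (SD 0.359) in 9 NF males. The settings overlapped, and the highest ISO library was exceeded by libraries of every other setting. Library totals in TN had a median of 11727000 counts in ISO males and medians between 11255000 and 11935000 in the other settings. Among control males the ISO median was 12508000, above the 10289000 to 12034000 of the other settings, and among LPS males 11118000, below their 11501000 to 11995000. The part of depth in the difference was not tested. Scaled to library size alone, the difference had the same sign at each injection. In control males the median was 0.25, with 47 genes higher (41.6% of all genes). In LPS males the median was 0.33, with 47 genes higher (47.9% of all genes). Of 43 tested genes picked the other way around, 32 were lower with a female, with a median of -0.18. With 2 surrogate variables in the model, 40 of the 51 genes were higher, the median was 0.14 and 3 passed (0.692% of all genes).

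The gene that passed was ENSTGUG00000000999, which is named here because of its value and is among the genes that did not follow the set in TN. In TN it ran from 94.6 to 173 CPM with a median of 138 in 12 ISO males. It ran from 133 to 236 CPM with a median of 160 in 12 KF males, from 131 to 207 with a median of 163 in 10 KFC males, and from 149 to 288 with a median of 169 in 9 NF males. The 3 settings with a female overlapped the upper part of the ISO range, and each had a lowest library above the lowest 5 of the isolated males. The fitted difference was 0.40 on the log2 scale (SE 0.09, n = 43 libraries, edgeR adjusted p = 0.0334). The adjusted p lay between 0.0530 and 0.0839 when any of the ISO libraries of males 6, 8, 9, 12, 13, 53 or 56 was left out (0.0733, 0.0584, 0.0530, 0.0558, 0.0839, 0.0535 and 0.0631 in that order), so the call rests on each of them. The fitted change without any of them stayed between 0.36 and 0.41. With 2 surrogate variables it was 0.42, with an adjusted p of 0.0110.

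In NST the same contrast was positive for 46 of the 51 genes (49.8% of all genes), with a median of 0.18, and none passed (0.0278% of all genes). Unadjusted, 5 of 51 had p under 0.05 (8.74% of all genes), all higher with a female (3.7% in that direction), and DESeq2 called 0 (0.0904%). In HY 34 of the 51 were higher (50.1% of all genes), with a median of 0.05, and none passed (0% of all genes). There 2 had an unadjusted p under 0.05 (6.01% of all genes), and DESeq2 called 0 (0.00694%). Scaled to library size, the HY count was 35 in control males (median 0.05, 44.8% of all genes) and 17 in LPS males (median -0.07, 49.9%). For NST these counts were 40 (50.7% of all genes) and 45 (39.2%). Whether the difference of TN from NST depended on setting was tested across regions with the male as a block. None of the 51 passed (0% of all genes), 10 had an unadjusted p under 0.05 (8.12%), and limma called 0 (0.119%).

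**Figure D5:**
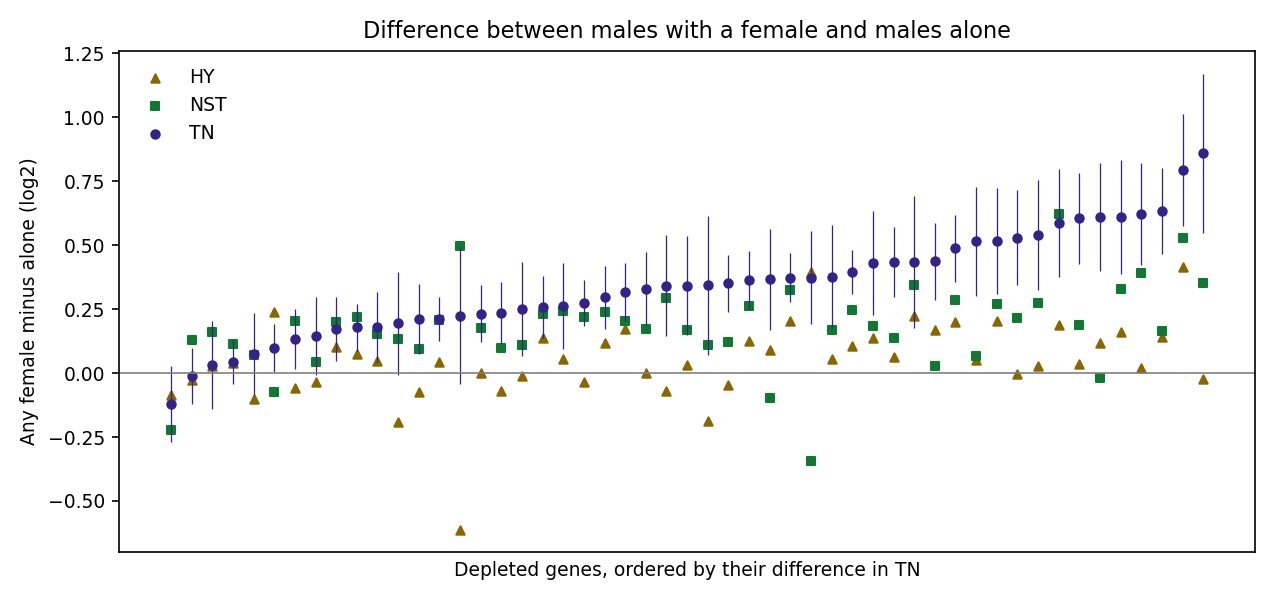
Fitted log2 difference between males with any female and isolated males for each of the 51 genes in HY, NST and TN, ordered by the value in TN, with SE bars for TN. In TN 49 of 51 values are above 0, in NST 46 and in HY 34.

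Over both injections, the contrast of males with an unfamiliar female with the other settings had opposite signs in NST and TN for most of the set. No gene of the set passed in either region. In the index, NF males were near ISO males in NST (0.204 against 0.279) and near KF males in TN (0.608 against 0.544). This contrast uses the same libraries as the one with isolated males, so the counts of each are not separate evidence. In NST, the mean of NF minus that of the remaining settings was negative for 50 of the 51 genes, with a median of -0.25. Of all genes tested in NST, 52.7% were higher in NF. Among the 43 genes picked the other way around 38 were higher, with a median of 0.23. None of the 51 passed (0% of all genes), 11 had an unadjusted p under 0.05 (7.21% of all genes), all lower in NF (2.79% in that direction), and DESeq2 called 0 (0%). In TN the contrast was positive for all 51 (51.9% of all genes), with a median of 0.22, and 28 of the 43 genes picked the other way around were lower. By injection, the TN index of control NF males averaged 0.528, within the other settings (ISO 0.320, KFC 0.598, KF 0.656). After LPS the NF average was 0.710, above ISO (0.089), KFC (0.239) and KF (0.432). The contrast was not tested by injection. None of the 51 passed in TN (0% of all genes), 6 had an unadjusted p under 0.05 (5.54% of all genes), all higher in NF (3.04% in that direction), and DESeq2 called 0 (0.00685%). In HY 34 of the 51 were lower in NF, with a median of -0.02, while 49.4% of all genes were higher. The HY index of control NF males averaged -0.772, above ISO (-0.917), KFC (-0.801) and KF (-0.986). After LPS it averaged -0.860 in NF, below ISO (-0.740), KFC (-0.662) and KF (-0.743). None of the 51 passed in HY (0.00693% of all genes), 1 had an unadjusted p under 0.05 (2.76%), and DESeq2 called 0 (0.00694%). With 2 surrogate variables in the model, 35 of 51 were lower in NST with a median of -0.05, and 40 of 51 were higher in TN with a median of 0.08. Without NST of males 3 and 4, 49 of 51 were lower in NST with a median of -0.22. The NST index averaged 0.204 (SD 0.475) in 12 NF males and 0.279 (SD 0.408) in ISO, 0.581 (SD 0.343) in KF and 0.564 (SD 0.359) in KFC males. NF males overlapped every other setting, from -0.48 to 1.01.

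Continuous company of a familiar female was compared with reunion. In NST KFC minus KF was positive for 36 of the 51 genes (47.2% of all genes) with a median of 0.07. Of these 51, 1 passed (0.473% of all genes), with 3 at an unadjusted p under 0.05 (8.89%). For the 1 that passed, this contrast is not independent of the choice, as given below. DESeq2 called 1 (1.15% of the 11596 genes it gave an adjusted p). In TN KFC minus KF was negative for 45 of the 51, with a median of -0.18, while it was positive for 49.9% of all genes. None passed there (0% of all genes), 1 had an unadjusted p under 0.05 (3.8%), and DESeq2 called 0 (0%). In HY 27 were higher (50.7% of all genes) and 24 lower. None passed in HY (0% of all genes), 0 had an unadjusted p under 0.05 (4.06%), and DESeq2 called 0 (0%). The setting cannot be told apart here from the separate numbering of the KFC males.

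The gene that passed in NST was ENSTGUG00000018608, which followed the set in no region, and it too is named because of its value. It lay close to the limit of the choice, with HY minus NST at -1.03 on the log2 scale. Its mean in NST control males was 636 CPM in KFC, against 178 in ISO, 131 in KF and 144 in NF. The KFC control libraries thus raised the NST level by which this gene was chosen. Its tests of setting in NST are not independent of the choice. In KFC males it stood at 290, 351, 409, 488 and 560 CPM after LPS and at 410, 512, 634, 789 and 835 CPM after control injection. In KF males it stood at 86.7, 89.7, 125, 149, 268 and 441 CPM after LPS and at 70.5, 95.6, 129, 130, 139 and 220 CPM after control injection. Control KFC and KF males did not overlap, and 1 LPS male of KF lay within the KFC range. The difference was 1.78 on the log2 scale (SE 0.36, n = 46 libraries in the fit, edgeR adjusted p = 0.0231). It was 1.72 with an adjusted p of 0.0534 without control male 31 of KF, and 1.73 with 0.0542 without control male 62 of KFC. Over all settings the gene had an adjusted p of 0.0496 in the same fit, which was lost without any of 38 of the 46 NST libraries. Its NST medians were 158 CPM in ISO and 142 CPM in NF males, with ranges of 58.4 to 538 and 56.4 to 569 CPM. In TN the medians were 217 CPM in ISO, 206 in KF, 285 in KFC and 224 in NF males, and in HY 108, 89.8, 101 and 83.9 CPM. The settings overlapped in both of those regions.

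The depth of the depletion was then compared across settings. HY minus the mean of NST and TN was tested for dependence on setting over both injections, with the male as a block, and 0 of the 51 genes passed edgeR's test (0% of all genes). At an unadjusted p under 0.05 there was 1 of 51 (5.4% of all genes), and limma called 0 (0%). The dependence of this difference on LPS and setting together gave 0 calls (0% of all genes), 2 of 51 at an unadjusted p under 0.05 (3.02%), and 0 by limma (0%). The genes with the lowest p for setting were ENSTGUG00000012192 (n = 134 libraries, p = 0.0136, edgeR adjusted p = 0.889) and ENSTGUG00000003475 (p = 0.0640, edgeR adjusted p = 0.891).

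ENSTGUG00000012192 was a low gene. In HY its medians were 1.96 CPM in ISO, 1.65 in KF, 2.91 in KFC and 2.85 in NF males, with an overall range from 0.128 to 4.89 CPM. In NST the medians were 7.13, 5.41, 5.52 and 5.58 CPM in the same order, and in TN 5.65, 7.54, 6.90 and 9.16 CPM. The settings overlapped in each region, and HY was the lowest region in 39 of 42 males. ENSTGUG00000003475 had control medians of 190 CPM in HY, 418 in NST and 434 in TN, with ranges of 145 to 298, 270 to 695 and 285 to 630 CPM. Its HY range met the low ends of both others, and HY was lowest in 40 of 42 males.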

How the data were processed

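Per the labels' protocols, polyadenylated RNA was prepared with the NEBNext Ultra kit. HISAT2 and HTSeq 0.6.1 are named in the submitters' processing notes, and the sources used here give no genome build, annotation or strand setting. The deposited values are the authors' raw read counts for 18618 genes, with no normalization. Reads that fit overlapping genes or close copies may distort the counts of those genes. Region codes were matched to region names by abbreviation.

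The 51 genes, the contrasts and the lists were chosen with earlier results of these data known. Counts were fitted with edgeR 4.0.16 in R 4.3.3, per region over its 8 groups: filterByExpr (minimum count 10, minimum total 15), TMM scaling, robust quasi-likelihood test, 2-sided, Benjamini-Hochberg adjustment over all genes tested. The numbers tested were 14420 (HY), 14386 (NST) and 14598 (TN), with all 51 genes among them. Tests across regions used 15097 genes and all 134 libraries, with the male as a block. Pairing is part of the design, since all regions of a male were dissected. Deviations of same-numbered libraries correlated above 0.1 for 42 of 45 HY and NST pairs, 40 of 42 HY and TN pairs and 42 of 43 NST and TN pairs. Replicates were taken as separate males from the numbering. No pair of libraries within a group agreed within sampling noise (lowest chi-square per gene 8.69 over 311 pairs).

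The genes named are the 2 with the widest gap among those with a mean log2 CPM of at least 3 in NST and TN, the 2 with the lowest p for a gap that depends on setting, and the 2 that passed a test, the last named after their values were seen. No gene list or marker list (12 in all) could be used without names. Alternatives were RLE scaling, no filter on low counts, DESeq2 1.42.0, limma 3.58.1, 2 surrogate variables (sva 3.50.0), no replicate block, other limits of the rule, and libraries left out. Shares for DESeq2 are of the genes to which it gave an adjusted p. Scripts were tested on simulated data.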

Additional observations from a re-analysis of the deposited data

Results flagged for a closer look

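The index of the 51 genes and the levels of the 6 named genes were examined for a single library far from the others in each group of 4 to 6 libraries, 168 groups of values in all, and 5 were found, none in the index. Chance flags about 1 in 20 groups. ENSTGUG00000006595 had a log2 CPM of 4.85 in HY of isolated control male 50, with the other males of that group between 2.95 and 3.58. ENSTGUG00000002096 had a log2 CPM of 2.20 in HY of isolated LPS male 16, with the others between 2.95 and 3.38. ENSTGUG00000012192 had a log2 CPM of 0.29 in NST of control male 44 of the KF setting, with the others between 1.89 and 2.79. ENSTGUG00000000999 had a log2 CPM of 7.14 in NST of control male 66 of the KFC setting, with the others between 7.46 and 7.57. ENSTGUG00000018608 had a log2 CPM of 8.71 in HY of isolated LPS male 8, with the others between 6.59 and 7.21.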

How the results depend on the processing

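Of 1164 alternative values for 32 results, 1050 stayed the same, 64 moved, 50 became weaker and 0 reversed. Counts, correlations and the median gap were the same when equal to the main value or within a fixed fold of it. Many tests had 0 calls in the main fit, and 0 calls in an alternative were scored as the same. The tally is therefore no measure of how firm the results are. Calls of single genes were weaker when the adjusted p was no longer under 0.05. Reversal was scored only for fitted differences of single genes. The number of genes in the set, 51, was 24 with HY at least 1.2 lower and 94 with HY at least 0.8 lower, and ran from 45 (without HY of male 44) to 58 (without NST of male 44) as single libraries were left out. With TMM scaling it was 61, of which 46 were shared. For settings over both injections in NST, the 1 call was 0 with RLE scaling (adjusted p = 0.0512), 0 with 2 surrogate variables (0.143), 0 without HY of male 44 and NST of males 3 and 4 together (0.0615), 4 with DESeq2, and 0 to 1 as single libraries were left out. For control males in NST, 0 calls became 1 with DESeq2 and ran from 0 to 1 (1 without NST of male 16 or of male 58). KFC against KF in NST ran from 0 to 1. For settings in TN, DESeq2 gave 1 in place of 0. For males with a female against isolated males in TN, the 1 call was 6 with DESeq2, 3 with 2 surrogate variables, and 0 to 5 as single libraries were left out: 0 without any of the 7 ISO libraries named above, and up to 5 without TN of control KFC male 63. The causes were not tested. Shares over all genes are given above for DESeq2 and, in TN, for 2 surrogate variables. They are not given for the other refits, whose counts are therefore not a result about the set. Without the replicate block, 0 genes of the set passed each of the 3 tests across regions, as with it. Leaving out single libraries was not run for those 3 tests, was added after seeing the data for NST and TN groups of 6, and in HY covered groups of 5. Low genes such as ENSTGUG00000012192, at a few CPM in HY, carry the widest counting error.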
